A study of Mus musculus with 15 samples.

Results

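The genes that reabsorb filtered protein in the proximal tubule, 7 of the 33058 named genes in the expression table, were followed in kidneys of ageing mice: Lrp2, Cubn, Amn, Dab2, Clcn5, Ocrl and Lrpap1. They were chosen by their known role, and the level of each was the sum of FPKM (fragments scaled by transcript length and by library size) over its annotated and assembled transcripts. They held 49 of 129029 listed transcripts and 73 of 11929 listed circular RNAs. The study sequenced kidney RNA of 15 male C57BL/6 mice (C57BL/6J in the study's methods), 5 aged 3 months, 5 aged 12 months and 5 aged 24 months. Ribosomal RNA was depleted and 1 library was made per mouse, as described by the labels, while the study's methods speak of oligo(dT) purification and pooled RNA. The labels name no treatment and no engineered allele at any age, all mice were kept on standard chow, and each library mixes all cell types of the kidney. Mice are named by their replicate numbers, 5 to 9 at 3 months, 17 to 21 at 12 months and 31 to 35 at 24 months.

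Albumin, vitamin-binding proteins and small hormones that pass the glomerular filter are retrieved by the tubule through endocytosis. Megalin, made from Lrp2, is a giant endocytic membrane receptor, and cubilin, made from Cubn, is a receptor without a membrane anchor that amnionless, made from Amn, holds at the cell surface. Dab2 is the clathrin adaptor that binds the tail of megalin, Clcn5 encodes the chloride and proton exchanger of endosomes that is mutated in Dent disease, Ocrl encodes the inositol phosphatase mutated in Lowe syndrome, and Lrpap1 encodes the chaperone that shields megalin from its ligands on the way to the surface.

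In the sums of FPKM, the receptors and their adaptor stood far above the other members. Over the 15 mice the mean was 435.7 FPKM for Lrp2, 189.6 for Dab2, 156.6 for Cubn, 26.5 for Lrpap1, 24.5 for Clcn5, 22.6 for Amn and 6.53 for Ocrl. Lrp2 was the 35th most abundant named gene on this scale. Lrp2 lay above Dab2 in 15 of 15 mice, and Dab2 above Cubn in 14 of 15. Lrpap1 lay above Clcn5 in 10 of 15 mice and Clcn5 above Amn in 9 of 15, and these neighbours in the order were not separated beyond their spread. Cubilin RNA exceeded that of amnionless, its partner in the receptor complex, by a median of 7.36-fold, with single mice between 3.73-fold and 15.1-fold.

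**Figure D1:**
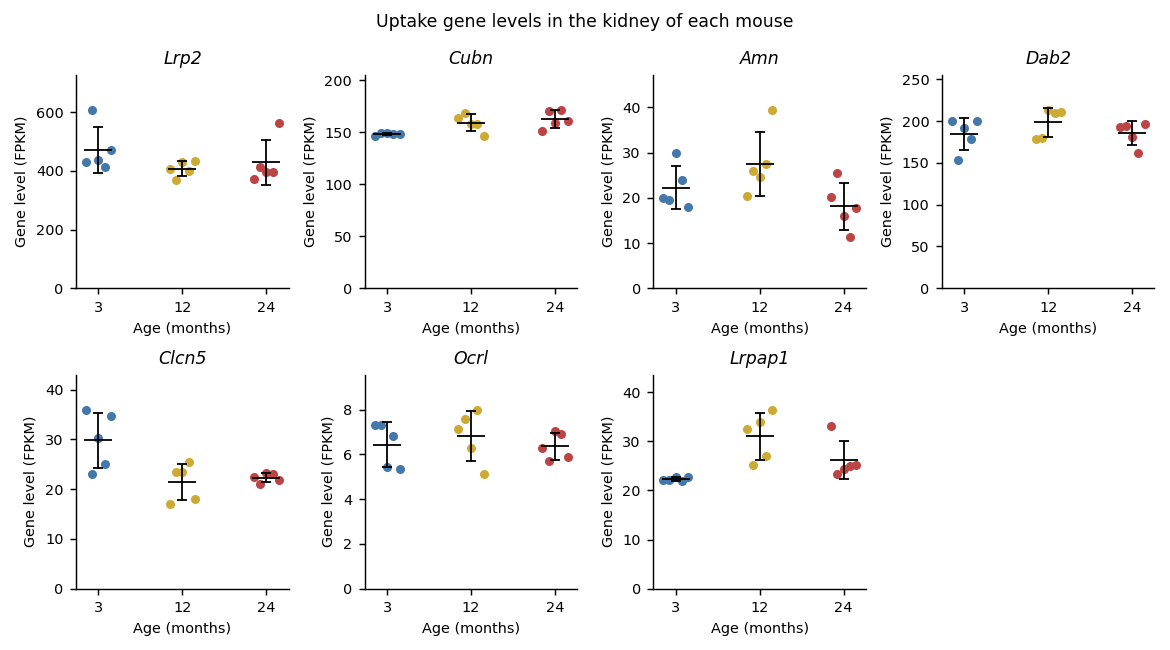
Level of each uptake gene (FPKM, vertical axis from 0) in each of 15 mice by age (months, horizontal axis), with 1 point per mouse and black bars for the mean and SD of 5 mice. Lrpap1 lies between 21.9 and 22.8 in all 3-month-old mice and above that range in all older mice, while Clcn5 is highest at 3 months.

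The comparison of 24 with 3 months asked which RNAs differ between old and young kidneys. Of the 7 members, 1 was higher and 1 lower at an unadjusted p under 0.05 with limma, the limit used for a gene that passed, where 11.4% of the 31755 genes tested were higher and 3.47% were lower. None of the 7 had an adjusted p under 0.05, against 1.22% of all genes. The median log2 fold change of the members was -0.01, and that of all genes tested was 0.02. The levels of 2 members, Cubn and Lrpap1, did not overlap between these ages, as was the case for 4.73% of all genes.

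Comparing 12 with 3 months, again 1 member was higher and 1 lower, beside 11.4% and 2.9% of 31637 genes, and none passed after adjustment, beside 0.25%. Only Lrpap1 among the members did not overlap between 12 and 3 months, a pattern shown by 4.11% of genes. Comparing 24 with 12 months, 0 of 7 members were higher and 1 was lower, beside 3.07% and 3.36% of 32282 genes. After adjustment 0 members passed that comparison, beside 0.0031% of genes. The 24-month-old and 12-month-old mice were both set against the same 3-month-old mice, and the comparisons are therefore not independent of each other.

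**Figure D2:**
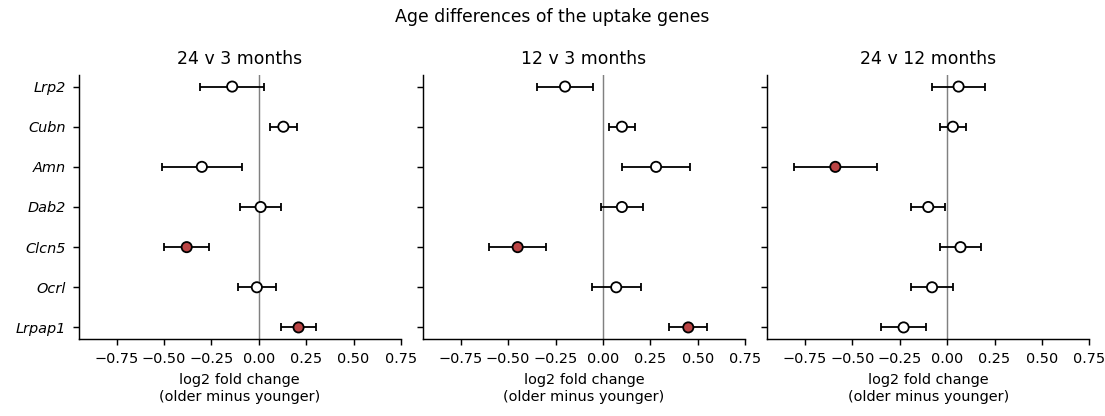
Log2 fold change of each uptake gene (horizontal axis, older minus younger age, on log2(FPKM + 1)) in the 3 comparisons, with bars for the standard error and filled points for an unadjusted p under 0.05 in limma. Clcn5 and Lrpap1 are filled in both comparisons with 3 months, and Amn alone is filled between 24 and 12 months.

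Among the receptors, Lrp2 did not pass in any comparison. Its level at 3 months was 429.8, 606.4, 436.6, 414.5 and 469.9 FPKM in replicates 5 to 9. At 12 months it was 406.7, 369.7, 431.2, 398.1 and 432.0, and at 24 months 373.2, 411.3, 396.8, 397.1 and 562.9. Replicate 6 at 3 months and replicate 35 at 24 months stood above all others, and the ages overlapped. The log2 fold change from 3 to 24 months was -0.14 (SE 0.17, adjusted p = 0.726, limma), a fold of 0.907 with an approximate 95% interval from 0.717 to 1.15.

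The 2 high Lrp2 values stood beside a different division of fragments between transcripts. Lrp2 lies on chromosome 2 (minus strand, GRCm38, 69424335 to 69586029 in RefSeq) and its 79-exon transcript ENSMUST00000080953 carried 80.9% of the gene's FPKM on average. A 25-exon coding transcript that shares the start of the gene, ENSMUST00000100051, was given 275.8 FPKM in replicate 6 and 239.3 FPKM in replicate 35, and between 1.89 and 92.2 FPKM in the other 13 mice. In replicates 6 and 35 the 79-exon transcript held 281.1 and 280.7 FPKM, against 267.3 to 415.2 FPKM elsewhere. Weighting each transcript's FPKM by its length gives the library-scaled fragments that fall on the gene, however they are divided, in units of FPKM × kb. On that scale, added after seeing the data, replicate 6 was the lowest of the 3-month-old mice at 5703 FPKM × kb and replicate 35 the lowest of the 24-month-old mice at 5499. The coefficient of variation of Lrp2 over the 15 mice was 6.35% on the weighted scale and 15.2% on the FPKM scale. The age difference at 24 against 3 months was -0.12 on the log2 scale (SE 0.16, adjusted p = 0.758, limma), with 6181 ± 328 (SD, n = 5) FPKM × kb at 3 months and 5702 ± 155 at 24 months.

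**Figure D3:**
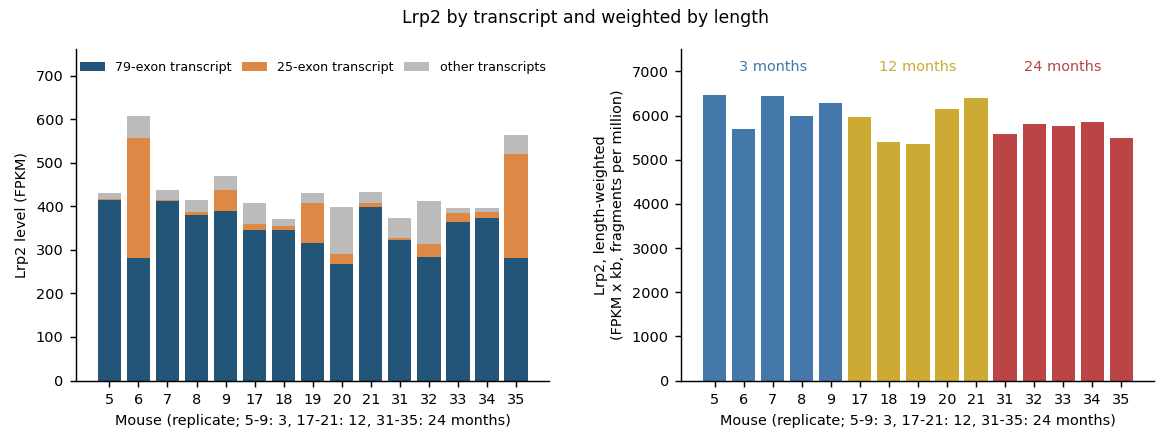
Left, Lrp2 level (FPKM) of each mouse stacked by transcript; right, the same libraries with FPKM weighted by transcript length (FPKM × kb), coloured by age. Replicates 6 and 35 are the tallest bars on the left, where the 25-exon transcript adds 275.8 and 239.3 FPKM, and are the lowest of their ages on the right.

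Cubn, on chromosome 2 (minus strand, GRCm38, 13276338 to 13491876), had the smallest spread in FPKM of the 7 members. At 3 months its level was 146.4, 149.0, 149.1, 148.4 and 148.5 FPKM in replicates 5 to 9. At 24 months it was 151.0, 170.7, 158.4, 171.2 and 160.8, all above the 3-month-old mice, and at 12 months 163.9, 168.6, 158.2, 158.1 and 146.8, of which replicate 21 fell within the young range. The mean was 148.3 ± 1.11 FPKM (SD, n = 5) at 3 months and 162.4 ± 8.59 at 24 months. The difference did not pass in limma (log2 fold change 0.13, SE 0.07, adjusted p = 0.463), whose SE draws in part on other genes. An exact permutation test of the same values gave p = 0.00794 (two-sided), the smallest that 5 against 5 mice allow. Weighted by length, the 2 ages overlapped, with 1630 to 1717 FPKM × kb at 3 months and 1688 to 1923 at 24 months.

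Almost all Cubn FPKM went to a pair of transcripts that differ at the start of the gene, and the division between them changed from mouse to mouse. The annotated 67-exon transcript ENSMUST00000091436 starts at position 13491813, and an assembled 68-exon transcript starts upstream, at 13493738. The assembled transcript held 95.3% to 96.3% of the gene's FPKM in replicates 6, 8, 9 and 33, and at most 0.0632% in replicates 5, 7, 20, 21 and 32. In the remaining 6 mice it held 46.3% to 50.2%. Both extremes occurred among the 3-month-old mice, and the difference in its share between 24 and 3 months did not pass (47.7% against 57.4%, exact permutation test, two-sided, p = 0.667, n = 5 per age). With the annotated transcripts alone, the log2 fold change of Cubn from 12 to 24 months was -0.80, against 0.03 for the sum.

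Amn, the anchor of cubilin on chromosome 12 (plus strand, GRCm38, 111271096 to 111276426), varied most of the 7. It was listed at 19.9, 19.6, 29.9, 24.0 and 17.98 FPKM at 3 months. The 12-month-old mice held 20.4, 25.9, 24.5, 27.4 and 39.4 FPKM, and the 24-month-old mice 20.1, 25.4, 16.1, 11.3 and 17.7 FPKM. The ages overlapped, with the highest value in a 12-month-old and the lowest in a 24-month-old mouse. Amn fell from 27.5 ± 7.12 to 18.1 ± 5.19 FPKM (SD, n = 5) between 12 and 24 months (log2 fold change -0.59, SE 0.22, unadjusted p = 0.0231, adjusted p = 0.745, limma). Without replicate 21 the log2 fold change was -0.46 with an unadjusted p of 0.0523. Neither comparison with 3 months passed (log2 fold change 0.28 at 12 months and -0.30 at 24 months).

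Dab2, the adaptor on chromosome 15 (plus strand, GRCm38, 6299788 to 6440715), did not pass in any comparison. It ranged from 153.5 to 200.4 FPKM at 3 months with a mean of 184.7 ± 19.6 (SD, n = 5), from 178.7 to 213.2 at 12 months, and from 161.8 to 197.1 at 24 months with a mean of 185.5 ± 14.6. The log2 fold change from 3 to 24 months was 0.01 (SE 0.11, adjusted p = 0.976, limma), a fold of 1.01 with an approximate 95% interval from 0.87 to 1.16. Its sign turned to -0.03 under median-of-ratios scaling.

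Dab2 RNA is spliced with or without 2 coding exons, one of 63 and one of 654 bases, whose lengths are multiples of the codon length. These GENCODE M21 sequences show the bases that tell the forms apart, with the included exon in capitals and the flanking exons in lower case; for the longer exon its first 60 bases are shown.
Dab2 exon at chr15:6424635-6424697, plus strand, included: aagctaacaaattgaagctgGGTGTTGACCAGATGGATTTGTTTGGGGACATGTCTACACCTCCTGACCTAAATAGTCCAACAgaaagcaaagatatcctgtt
Dab2 join without that exon: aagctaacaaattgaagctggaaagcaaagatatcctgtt
Dab2 exon at chr15:6429296-6429949, plus strand, included: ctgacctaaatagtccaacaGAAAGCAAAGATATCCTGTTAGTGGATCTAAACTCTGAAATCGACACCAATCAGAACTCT
Dab2 join without that exon: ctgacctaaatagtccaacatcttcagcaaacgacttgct
The first skipped join is drawn with the longer exon retained, and the second with the shorter exon retained.

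The form with the 63-base exon and without the 654-base exon, ENSMUST00000110663, held 54.9% of Dab2 FPKM on average, with single mice between 47.4% and 64.9%. The form without either exon held 10.0% and the form with both 5.24%. The form with the longer exon alone held 2.13%. The share of the form without either exon was 9.18% at 3 months and 11.5% at 24 months (exact permutation test, two-sided, p = 0.0476, n = 5 per age), with overlap between 6.78% to 11.9% and 10.6% to 12.8%. Its own level did not pass in the test across all transcripts (17.1 ± 4.63 against 21.3 ± 1.69 FPKM in the mean and SD of 5 mice, adjusted p = 0.703 for a log2 fold change of 0.34, limma). The remaining 27.7% went to 10 transcripts that do not span both exons.

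**Figure D4:**
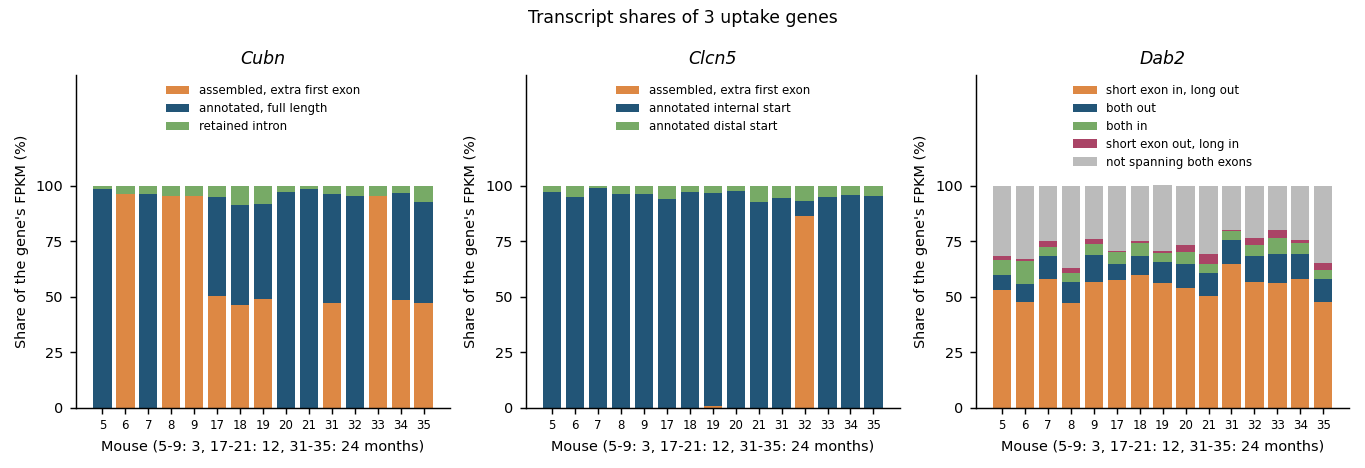
Share of the gene's FPKM (percent, vertical axis) by transcript group in each mouse for Cubn, Clcn5 and Dab2. The assembled Cubn transcript holds nearly none or nearly all of the gene at 3 months and about as much as the annotated one in 3 mice each at 12 and 24 months. The assembled Clcn5 transcript holds most of its gene in replicate 32 alone. In Dab2 the form with the short, 63-base exon in and the long, 654-base exon out is the largest group in every mouse.

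Of the endosomal members, Clcn5 was lower in both older groups. Its level at 3 months was 35.8, 23.1, 30.3, 25.1 and 34.6 FPKM in replicates 5 to 9. At 12 months it was 17.02, 23.5, 23.3, 25.4 and 18.1, and at 24 months 22.4, 21, 23.3, 23.0 and 21.9. Of the young mice 3 lay above every older mouse, and replicates 6 and 8 fell within the range of the older ones. Clcn5 fell from 29.8 ± 5.62 to 22.3 ± 0.913 FPKM (SD, n = 5) between 3 and 24 months (log2 fold change -0.38, SE 0.12, unadjusted p = 0.0098, adjusted p = 0.168, limma). Between 3 and 12 months the log2 fold change was -0.45 (SE 0.15, unadjusted p = 0.0152, adjusted p = 0.226, limma), and between 12 and 24 months it was 0.07. The direction was the same with any single mouse left out, with log2 fold changes from -0.46 to -0.31 at 24 against 3 months. With annotated transcripts alone it was -0.89 and did not pass (unadjusted p = 0.104, limma).

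Clcn5 lies on chromosome X (minus strand, GRCm38, 7153810 to 7319358) and RefSeq lists 2 starts for it. Transcripts from the distal start held 4.29% of its FPKM on average and those from the internal start 89.9%. The 2 RefSeq promoters, each from 250 bases before to 50 after the start on the minus strand of GRCm38.p6, are printed because the transcripts divide between them, with matches to a GC box in capitals.
Clcn5 distal start, chrX:7319309-7319608: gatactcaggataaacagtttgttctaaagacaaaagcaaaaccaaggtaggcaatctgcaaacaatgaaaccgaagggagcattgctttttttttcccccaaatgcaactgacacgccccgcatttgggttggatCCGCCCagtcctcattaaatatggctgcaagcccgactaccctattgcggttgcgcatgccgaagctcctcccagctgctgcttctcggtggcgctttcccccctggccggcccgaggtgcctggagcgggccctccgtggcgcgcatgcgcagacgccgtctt
Clcn5 internal start, chrX:7188665-7188964: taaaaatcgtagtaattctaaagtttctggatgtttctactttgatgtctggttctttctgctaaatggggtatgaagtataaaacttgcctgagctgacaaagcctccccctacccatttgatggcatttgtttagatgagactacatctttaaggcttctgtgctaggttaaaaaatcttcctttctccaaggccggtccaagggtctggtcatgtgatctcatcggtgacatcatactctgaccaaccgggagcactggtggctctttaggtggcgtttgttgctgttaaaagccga
The distal window holds 19 CpG pairs and 56% G and C, and the internal one 6 CpG pairs and 43.3% G and C. Searched on both strands, the GC box GGGCGG is found 1 time in the distal window, 0 times in the internal one and in 35.7% of 32851 RefSeq promoter windows. The E-box TCACGTG, found in 3.77% of windows, has no match in either.

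The transcripts of the internal start were at 28.8 ± 5.61 FPKM at 3 months, 20.5 ± 3.89 at 12 months and 17.5 ± 9.003 at 24 months (SD, n = 5). Replicate 32 stood apart at 24 months, where 18.2 of its 21 FPKM were given to an assembled transcript that starts at 7197866 with 1 extra exon, and 1.43 to those of the internal start. In the other 14 mice the assembled transcript held at most 0.985% of the gene. The transcripts of the distal start were at 0.940 ± 0.377 FPKM at 3 months and 1.17 ± 0.206 at 24 months, a difference that did not pass (exact permutation test, two-sided, p = 0.31). Their share of the gene's sum, which was itself lower at 24 months, went from 3.25% to 5.24% (exact permutation test, two-sided, p = 0.0397, n = 5 per age). The shares overlapped, with 1.04% to 4.94% at 3 months and 4.0% to 6.72% at 24 months.

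Ocrl, on chromosome X (plus strand, GRCm38, 47912418 to 47966428), was the least abundant member and did not pass in any comparison. It ranged from 5.32 to 7.33 FPKM at 3 months, from 5.14 to 7.96 at 12 months and from 5.69 to 7.03 at 24 months. The log2 fold change from 3 to 24 months was -0.01 (SE 0.10, adjusted p = 0.976, limma), and its sign turned with rescaling to TPM, where it was 0.01. Of its transcripts 1 rose and 1 fell. The 24-exon coding transcript ENSMUST00000001202 was at 1.64 ± 0.610 FPKM at 3 months and 2.64 ± 0.276 at 24 months (SD, n = 5, log2 fold change 0.49, SE 0.17, unadjusted p = 0.0171, adjusted p = 0.513, limma). The 5-exon coding transcript ENSMUST00000115013 was at 1.57 ± 0.398 and 0.846 ± 0.295 FPKM (log2 fold change -0.48, SE 0.16, unadjusted p = 0.0145, adjusted p = 0.491, limma), and its share went from 24.2% to 13.6% (exact permutation test, two-sided, p = 0.0159).

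Lrpap1, the receptor chaperone on chromosome 5 (minus strand, GRCm38, 35091490 to 35105699), was the member that rose. Its level at 3 months was 22.1, 22.2, 22.7, 21.9 and 22.8 FPKM in replicates 5 to 9. At 12 months it was 32.6, 25.2, 34.03, 27.0 and 36.3, and at 24 months 33.1, 23.3, 24.3, 25.1 and 25.3. Every older mouse lay above every young mouse, by little in replicate 32 and by most in replicate 21. The mean rose from 22.3 ± 0.398 to 31.02 ± 4.75 FPKM between 3 and 12 months (SD, n = 5, log2 fold change 0.45, SE 0.10, unadjusted p = 0.00121, adjusted p = 0.093, limma). At 24 months it was 26.2 ± 3.92 FPKM (log2 fold change 0.21, SE 0.09, unadjusted p = 0.0387, adjusted p = 0.300, limma). The 24-month call was lost without any single 3-month-old mouse and without replicate 34 or 35, with unadjusted p from 0.0501 to 0.0692, while the log2 fold change stayed between 0.13 and 0.25. It was also lost with all 15 mice in the fit (unadjusted p = 0.0654, limma), under median-of-ratios scaling (unadjusted p = 0.075, limma) and with annotated transcripts alone (unadjusted p = 0.162, limma). Weighted by length, 12 and 3 months still did not overlap (71.5 to 114.9 against 58.1 to 68.3 FPKM × kb), whereas 24 and 3 months did, with a lowest value of 66.3 at 24 months.

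Most Lrpap1 FPKM, 68.9%, belonged to its 8-exon coding transcript ENSMUST00000030986, at 15.8 ± 1.58 FPKM at 3 months, 21.9 ± 4.23 at 12 months and 17.3 ± 3.91 at 24 months (SD, n = 5). Megalin RNA exceeded that of its chaperone by a median of 16.3-fold, with single mice from 11.3-fold to 27.4-fold.

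Counted over all 49 transcripts of the members, 3 rose and 1 fell between 3 and 24 months at an unadjusted p under 0.05, beside 7.9% of the 124719 transcripts tested in either direction, and 0 of 49 had an adjusted p under 0.05 (limma). Besides the Ocrl pair these were the 3-exon Lrpap1 transcript ENSMUST00000132754 (0.970 to 1.69 FPKM in the means) and the 4-exon Clcn5 transcript ENSMUST00000132126 from the distal start (0.127 to 0.448 FPKM), both annotated as processed transcripts without a coding frame. Of the 13 transcripts with at least 10% of their gene, 3 changed their share at an exact p under 0.05: Dab2 ENSMUST00000161812, Clcn5 ENSMUST00000004428 and Ocrl ENSMUST00000115013. These p-values were not adjusted, and shares of 1 gene depend on each other. The share test was not run over all transcripts, and whether 3 of 13 is more than elsewhere was not tested. The Clcn5 share, 91.3% at 3 months and 67.9% at 24 months, includes replicate 32, in which this transcript was listed at 0.

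Markers of the proximal tubule, where these genes serve the uptake of filtered protein, were present in all libraries. Their summed level was 8441 to 14010 FPKM at 3 months, 10780 to 13810 at 12 months and 8138 to 10740 at 24 months over 15 genes. How much of each member's RNA came from other cells was not tested. One of the 15 markers rose and 3 fell between 3 and 24 months, namely Slc22a8 (log2 fold change 0.49) and Slc5a2 (-0.56), Gatm (-0.72) and Slc5a12 (-0.43), and 0 of the 15 changed between 3 and 12 months (limma, unadjusted p under 0.05). Of all genes, 11.4% were higher and 3.47% lower at 24 than at 3 months, and 11.4% and 2.9% at 12 than at 3 months. The mean of the 15 on the log2 scale was lower at 24 than at 3 months without passing (a difference of -0.11, exact permutation test, two-sided, p = 0.254). In bulk kidney RNA, fewer cells of a type and less RNA per cell cannot be told apart. Relative to the mean of the markers on the log2 scale, Cubn was higher at 24 than at 3 months by 0.24 (exact permutation test, two-sided, p = 0.00794, the smallest that 5 against 5 mice allow) and Lrpap1 by 0.32 (exact p = 0.0238). The difference of Clcn5 was -0.27 and did not pass (exact p = 0.127). With the median of the markers as the reference, none of the 7 passed at 24 against 3 months, and the differences were 0.28 for Cubn (exact p = 0.167) and 0.36 for Lrpap1 (exact p = 0.19).

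At 12 against 3 months, relative to the mean of the markers, Clcn5 was lower with a difference of -0.48 (exact permutation test, two-sided, p = 0.0238) and Lrpap1 higher by 0.42 (exact p = 0.00794). With the median as the reference, the difference of Clcn5 was -0.52 (exact p = 0.0397), and that of Lrpap1 was 0.37 and did not pass (exact p = 0.0635).

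Markers of other cells moved over the same ages, where 11.4% of all genes were higher at 12 and 11.4% at 24 than at 3 months. All 4 stroma markers rose between 3 and 12 months, from a summed 15.1 to 39.95 FPKM to 38.5 to 64.4 FPKM, and 2 of 4 rose between 3 and 24 months. All 4 lymphocyte markers rose between 3 and 24 months, from 1.14 to 5.01 FPKM to 4.66 to 8.72 FPKM. Of 4 injured tubule markers, Havcr1 and Vcam1 alone rose between 3 and 12 months (log2 fold change 1.27 and 0.87), and 2 fell between 12 and 24 months. The summed level of the 4 was 126.6 to 913.5 FPKM at 3 months and 142.2 to 311.3 at 12 months. Of 4 endothelium markers 1 rose between 3 and 24 months. There 0 of 4 podocyte, 3 thick ascending limb, 3 distal convoluted tubule, 4 collecting duct, 6 macrophage and 4 injured tubule markers passed. The part of these cells in the values of Lrpap1 and Clcn5 was not tested.

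Other genes of the uptake route were read from lists, beside the 11.4% of all genes that were higher and the 3.47% that were lower at 24 than at 3 months. Of 18 coat and adaptor genes, 0 rose and 3 fell between 3 and 24 months (limma, unadjusted p under 0.05), with a median log2 fold change of 0.03. They were the clathrin adaptor subunits Ap2s1 (21.8 ± 1.16 to 16.9 ± 1.495 FPKM in the mean and SD of 5 mice, with a log2 fold change of -0.35 and an adjusted p of 0.0528 in limma) and Ap2b1 (-0.26), and Inpp5b, a phosphatase related to Ocrl (-0.24). Of 20 genes of endosome sorting and recycling, 3 rose and 0 fell, with a median of 0.02. Snx2, a sorting nexin of the retromer, rose from 17.6 ± 0.812 to 22.0 ± 1.36 FPKM (log2 fold change 0.30, adjusted p = 0.0445, limma), and the others were Ehd3, a recycling protein (0.52), and Fcgrt, the receptor that salvages albumin and immunoglobulin (0.28). Of 9 endosomal ion transport genes, only Ostm1, the partner of the lysosomal exchanger, passed (0.55).

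Megalin's relatives and ligands differed by gene. Of 12 relatives of megalin, 3 rose and 0 fell between 3 and 24 months (limma, unadjusted p under 0.05), and 0 passed after adjustment. Of all genes, 11.4% were higher and 3.47% lower. Among the 3 were Lrp1 (log2 fold change 0.27) and Lrp8 (0.49), the latter at low means of 0.357 and 0.930 FPKM. Of 19 measured genes that encode filtered or bound ligands, 3 rose and 1 fell, beside 11.4% and 3.47% of all genes. Ambp, the precursor of the filtered protein alpha-1-microglobulin, rose from 0.415 ± 0.135 to 1.35 ± 0.382 FPKM (log2 fold change 0.72, adjusted p = 0.0346, limma), Apom rose by 0.47 and Alb by 0.45 on the log2 scale, and Ttr, the thyroid hormone carrier, changed by -0.70. Of 12 vitamin D genes and nuclear regulators 3 rose between 3 and 12 months, beside 11.4% of all genes, and 0 after adjustment. Among them Cyp24a1, which inactivates vitamin D, went from 28.8 ± 22.2 to 50.7 ± 14.2 FPKM (log2 fold change 1.01, adjusted p = 0.300, limma). At 24 months it was at 56.8 ± 29.7 FPKM and did not pass against 3 months (log2 fold change 1.02, unadjusted p = 0.082, limma).

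Between 3 and 12 months 11.4% of all genes were higher and 2.9% lower. Of 18 coat and adaptor genes 2 rose, among them Epn1 (log2 fold change 0.37). Of 20 sorting genes 3 rose, namely Snx2 (0.35), Snx1 (0.38) and Rab7 (0.60). Slc9a3r1 (0.63) rose of 9 ion transport genes, and Lrp1 (0.39) of 12 relatives of megalin. Of 19 ligand genes Ambp (0.67), Apom (0.53) and Cst3 (0.41) rose, and Apoa1 fell (-0.34). Between 12 and 24 months Epn1 (-0.27), Snx1 (-0.50), Rab14 (-0.48), Slc9a8 (-0.34), Cst3 (-0.56) and Clu (-0.38) fell and Lrp8 rose (0.43). There 3.07% of all genes were higher and 3.36% lower. All these genes passed at an unadjusted p under 0.05 (limma). After adjustment only Ambp passed among them (adjusted p = 0.0495 at 12 against 3 months, limma).

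No pair of members passed a test of varying together from mouse to mouse after adjustment over the pairs. Of 21 pairs over 15 mice, 7 had a positive Pearson r on log2(FPKM + 1), and the median r was -0.17. By permutation 0 pairs had an adjusted p under 0.05 with either Pearson's r or Spearman's rho, beside 2 with an unadjusted p under 0.05 for Pearson's r. These 2 were Clcn5 with Lrpap1, and Amn with Dab2 at r = 0.54 (permutation p = 0.0373, adjusted p = 0.392). The r of Amn with Dab2 was 0.23 without 2 mice. The receptors Lrp2 and Cubn had r = -0.32 (permutation p = 0.257, adjusted p = 0.607) and rho = -0.48 (permutation p = 0.072, adjusted p = 0.411), and r = -0.53 without the 2 mice farthest from the median of Lrp2. On these values the strongest pair was Clcn5 with Lrpap1 at r = -0.64 (permutation p = 0.0108, adjusted p = 0.227) and rho = -0.57 (permutation p = 0.031, adjusted p = 0.411), and r = -0.60 without 2 mice. With each age centred this pair had r = -0.28 (permutation p = 0.305, adjusted p = 0.535), and the strongest pair was Cubn with Lrpap1 at r = -0.73 (permutation p = 0.0201, adjusted p = 0.255) and rho = -0.41 (permutation p = 0.195, adjusted p = 0.646). Without 2 mice the latter r was -0.39. On the length-weighted scale 0 of 21 pairs had an adjusted p under 0.05 either, beside 3 with an unadjusted p under 0.05 for Pearson's r.

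As a description, the genes whose age-centred levels were most like Lrp2 over the 15 mice, among 13445 others with a mean of at least 1 FPKM, were Ndufa7 (r = 0.88), Ctdsp1 (0.87), Vangl1 (0.87), Halr1 (0.86) and Gm3336 (0.84), over the same libraries, which include the 2 with high Lrp2. For Cubn they were Gm29253 (r = 0.86), Kdm6a (0.83), C920006O11Rik (0.82), Wdr82 (0.79) and Endod1 (0.78). No other member was among them, and Lrpap1 ranked 13379th for Cubn.

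Circular RNAs were listed for 4 of the 7 genes, 44 for Lrp2, 26 for Cubn, 2 for Ocrl and 1 for Clcn5, and none was listed for Amn, Dab2 or Lrpap1. With 40 exonic circles Lrp2 ranked 5th and Cubn with 25 ranked 11th of 3836 host genes. All 67 exonic circles began and ended at annotated exon borders of GENCODE M21. The joins below, which exist only in the circle, are shown for the circle with the highest mean count of each gene, with the last bases of the closing exon in lower case and the first bases of the opening exon in capitals.
Lrp2 circRNA7937, exons 20 to 71 of 79, chr2:69435003-69511067, minus strand: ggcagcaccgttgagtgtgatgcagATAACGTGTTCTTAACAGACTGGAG
Cubn circRNA8569, exons 32 to 60 of 67, chr2:13294198-13362362, minus strand: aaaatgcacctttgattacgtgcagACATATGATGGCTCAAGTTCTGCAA
Clcn5 circRNA8762, exons 4 to 7 of 15, chrX:7178301-7213010, minus strand: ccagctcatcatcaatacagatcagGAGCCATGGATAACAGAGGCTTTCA
Ocrl circRNA1307, exons 5 to 18 of 24, chrX:47930371-47948360, plus strand: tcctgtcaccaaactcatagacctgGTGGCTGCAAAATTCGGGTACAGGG

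The estimated counts of these circles grew with the number of exons they span. Spearman's rho between exons and mean count was 0.89 over 40 Lrp2 circles and 0.84 over 25 Cubn circles, which overlap one another and share libraries. In 157 of 157 pairs of Lrp2 circles and 58 of 58 pairs of Cubn circles in which one lies inside the other, the outer circle had the higher mean count. The method of counting is not given in the sources used here, nor is whether reads of the linear RNA inside a circle's interval were counted with it, and circles of 1 gene were therefore read as overlapping measures and not as separate molecules. For the same reason the circle values below cannot be read as separate from the linear transcripts.

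**Figure D5:**
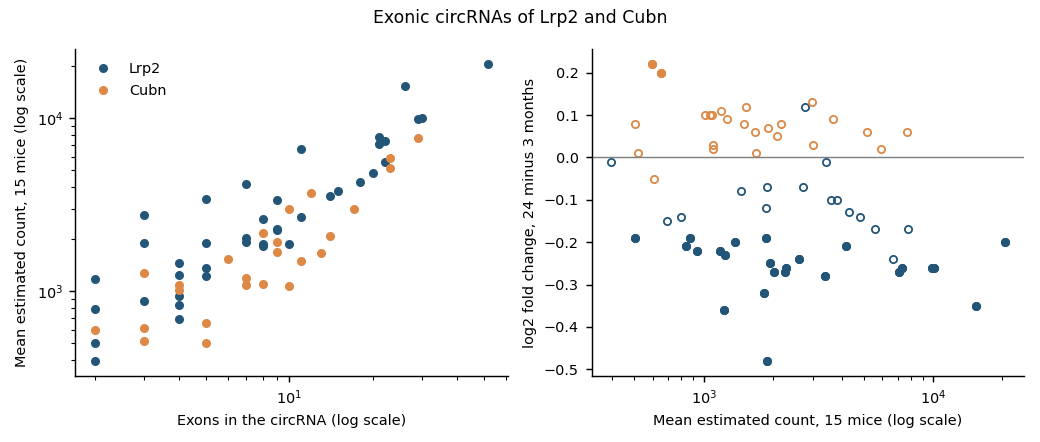
Left, mean estimated count over 15 mice against the number of exons of each exonic circle of Lrp2 and Cubn (both axes log scale); right, log2 fold change from 3 to 24 months against the mean count, filled where the unadjusted edgeR p is under 0.05. All filled Lrp2 points lie below 0, and the 2 filled Cubn points lie above it.

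Between 3 and 24 months 29 of the 73 circles passed at an unadjusted p under 0.05 (edgeR quasi-likelihood test), beside 28.8% of the 11924 circular RNAs tested. With single mice left out the count was 17 to 36, with 19 without 3-month replicate 8, 3-month replicate 9 or 24-month replicate 34, and 17 without 24-month replicate 33. After adjustment 5 of 73 had a p under 0.05, beside 13.3% of all circles. Of the 44 Lrp2 circles 25 passed, all lower at 24 months, beside 14.2% of all circles that were lower. The median log2 fold change of Lrp2 circles was -0.22, and that of all circles was 0.0. The clearest was circRNA4509, spanning exons 29 to 33 of 79, whose counts scaled to all circular RNA counts of the library (CPM) were 164.5 ± 17.9 (SD, n = 5) at 3 months and 135.7 ± 13.8 at 24 months (log2 fold change -0.36, adjusted p = 0.0334). These ages overlapped, with 148.5 to 187.1 against 120.1 to 154.7. The circle with the highest count, circRNA7937, went from 2561 ± 156 to 2363 ± 90.5 CPM (log2 fold change -0.20, adjusted p = 0.150). The CPM and the fold changes of circles are on different scales, because edgeR rescales the libraries by TMM and the CPM do not. For every circle named with CPM, the edgeR fold change at 24 against 3 months lies below that of its CPM means. Calls of lower and higher circles rest on the edgeR scale, and statements on overlap rest on CPM.

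The median log2 fold change of Cubn circles was 0.08. Of 26, 2 passed, and both were higher at 24 months, beside 14.6% of all circles. CircRNA976, of exons 23 to 27 of 67, rose from 68.9 ± 3.32 to 83.9 ± 4.32 CPM (log2 fold change 0.20, adjusted p = 0.0672, edgeR), and circRNA6118, of exons 42 and 43, from 63.02 ± 6.85 to 77.6 ± 3.57 (log2 fold change 0.22, adjusted p = 0.120, edgeR). For both, every 24-month-old mouse lay above every 3-month-old mouse in CPM. In CPM, 7 of the 73 circles did not overlap between these ages, beside 11.3% of all circles.

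The Ocrl circle circRNA1307 held 59.9, 57.4, 51.3, 52.8 and 50.9 CPM at 3 months. At 12 months it held 63.7, 68.8, 60.9, 65.2 and 66.1, and at 24 months 68.3, 66.5, 75.2, 73.2 and 64.3. All 10 older mice lay above all 5 young mice (24 against 3 months, log2 fold change 0.27, unadjusted p = 0.00383, adjusted p = 0.0367, edgeR). At 12 months the log2 fold change was 0.21 (adjusted p = 0.105, edgeR). It was listed at a mean of 7.18 FPKM, in a table estimated separately from that of the linear transcripts.

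The single Clcn5 circle was listed at a mean of 52.5 FPKM, in the same separate table. It joins 4 exons, of which 1 lies upstream of the internal start at 7188714 where only transcripts of the distal start reach, and these held 0.879 to 1.17 FPKM in the means of the 3 ages. Its levels were 151.7 ± 23.5 CPM (SD, n = 5) at 3 months and 136.1 ± 9.91 at 24 months (log2 fold change -0.24, unadjusted p = 0.0430, adjusted p = 0.159, edgeR), and the ages overlapped.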

How the data were processed

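Kidney RNA of 15 mice was sequenced as 1 library each. Per the labels, ribosomal RNA was removed and stranded libraries were made, and TopHat2 and StringTie were used; the study's methods give Bowtie2 and HISAT2, the GRCm38 build, Ensembl annotation, assembly per sample by StringTie, a merge by perl scripts, and levels from StringTie and edgeR. The authors deposited FPKM and coverage per transcript (coverage was not used in the tests), and for circular RNAs FPKM and estimated counts, of which 89.1% were not whole. Aligned sequence was 5.03 to 8.03 Gb per library, a size that limits low levels most. The median was 6.04 Gb at 3 months, 7.17 at 12 months and 7.00 at 24 months. Transcripts above 0 numbered 83226 to 86350 at 3 months and 87548 to 89709 in the older mice. The part of depth in the comparisons with 3 months was not tested. Nothing says more than 1 library came from a mouse. In limma and edgeR the spread between mice behind a p-value is drawn in part from other features. Their SE and p-values therefore do not rest on the gene's own values alone. Ages came from the age labels; all sample titles begin with the same text whatever the age.

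FPKM were summed per gene and tested as log2(FPKM + 1) with limma 3.58.1 (trend) in R 4.3.3, in the 2 ages compared, after a test on simulated data. Fold changes are on that scale and understate those of low genes. A result passed at an unadjusted p under 0.05, and Benjamini-Hochberg adjusted values were taken over all features. Circular RNA counts were rounded and tested with edgeR 4.0.16 (quasi-likelihood, TMM). Shares, levels relative to markers and, where given, levels took exact permutation tests over 252 assignments, and correlations 100000 permutations. The members and gene lists were chosen with earlier results of these data known. Other genes were named when they passed within a list, at most 4 per list and direction. Sequences are from GENCODE M21 and RefSeq (GRCm38.p6). Some genes and motifs of the lists are not reported here.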

Additional observations from a re-analysis of the deposited data

Results flagged for a closer look

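In 4 of 21 groups of 5 mice, 1 mouse stood apart by Dixon's test, which chance does in about 1 of 20 groups. Lrp2 was 606 FPKM in replicate 6 at 3 months, where the others were at 415 to 470. Lrp2 was 563 FPKM in replicate 35 at 24 months, where the others were at 373 to 411. Cubn was 146 FPKM in replicate 5 at 3 months, where the others were at 148 to 149. Lrpap1 was 33.1 FPKM in replicate 31 at 24 months, where the others were at 23.3 to 25.3.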

How the results depend on the processing

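No paired analysis was possible because the ages share no replicate number. At 24 against 3 months 2 members passed, 1 with a mean of at least 1 FPKM, median-of-ratios scaling, all 15 mice or a robust prior, 0 with annotated transcripts alone, and 1 to 3 with single mice left out. At 12 against 3 months 2 passed, and 2 without any single mouse. At 24 against 12 months 1 passed, 2 with all 15 mice, and 0 to 2 with single mice left out. Requiring an absolute log2 fold change above 1 or an adjusted p under 0.05 left 0 in every comparison. Of transcripts 4 passed, 0 after adjustment, and 4 to 7 with single mice left out. Of circular RNAs 29 passed, 5 after adjustment, and 17 to 36 with single mice left out. Of levels relative to markers at 24 against 3 months 2 passed, 0 with the marker median, and 2 without any single mouse. Of 13 shares 3 passed without adjustment, and 2 to 5 with single mice left out. The cause was not tested.

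At 24 against 3 months the log2 fold change of Ocrl turned to 0.01 as TPM and 0.08 with annotated transcripts alone, and ranged from -0.06 to 0.03 with single mice left out. That of Dab2 turned to -0.03 under median-of-ratios scaling and ranged from -0.06 to 0.06. At 24 against 12 months annotated transcripts alone gave -0.80 for Cubn and -0.43 for Clcn5, and Lrp2 turned to -0.04 when weighted by length, an alternative chosen after seeing the data. Single mice left out gave -0.01 to 0.13 for Clcn5 and -0.04 to 0.10 for Lrp2. Relative to markers, Lrp2 turned to 0.01 with the marker median and ranged from -0.12 to 0.08, and Ocrl ranged from -0.02 to 0.16. Amn at 24 against 3 months passed without replicate 32 (-0.43), and Lrpap1 at 24 against 12 months without replicate 18 (-0.30) or 31 (-0.32).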
